A study of Bos taurus with 8 samples.

Results

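The smooth muscle contractile genes are the 10 genes ACTA2, TAGLN, CNN1, MYLK, MYH11, LMOD1, MYL9, CALD1, ACTG2 and SMTN, which were taken from the gene table by an exact match of the symbol. All 10 were found, each with 1 gene identifier, among the 21880 genes in the table. Their unique molecular identifiers (UMIs, each marking 1 captured RNA molecule) were summed in the cells of each cell type, as labelled by the authors, of each donor animal. Levels are given as UMIs of a gene per 1000000 UMIs of those cells (CPM).

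The study followed cells from the semitendinosus muscle of 10 Belgian Blue cattle, a beef breed, from the tissue into the culture process used for cultured meat. Cells of all animals were pooled into 1 single-cell RNA library at each of 5 timepoints, and each cell was later assigned to its animal by genotype. The muscle group holds unsorted cells straight after collagenase digestion (10 donors), and P0 holds cells of 9 donors (all but donor 3) that had spent 72 h on fibronectin in a growth medium without serum. The study's methods place the sort after P0, whereas the sample labels name SCs and FAPs beside unsorted cells at P0 too, and P0 is taken here as unsorted. P2, P5 and P8 hold cells at passages 2, 5 and 8 of 3 kinds of culture, each kept in that medium. Cells of donors 1, 2 and 9 were passaged unsorted on fibronectin, those of donors 4, 7 and 8 as sorted fibro-adipogenic progenitors (FAPs) on collagen I, and those of donors 5, 6 and 10 as sorted satellite cells (SCs) on laminin-521. Donors 1, 3, 6, 8 and 9 were adult and donors 2, 4, 5, 7 and 10 were calves, so each comparison between timepoints mixes both ages. Because a timepoint is 1 library, the timepoint and its library cannot be told apart, and the sort cannot be told apart from the coating and the animals that went with it.

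Smooth muscle shortens when myosin light chain kinase phosphorylates the regulatory light chain of smooth muscle myosin, which then pulls on actin filaments that calponin, caldesmon and transgelin bind and that leiomodin helps to assemble. In skeletal muscle these genes are known from the mural cells, the smooth muscle cells and pericytes that wrap arterioles and capillaries, and several of them are also switched on in fibroblasts that become contractile (myofibroblasts). Many of them are targets of serum response factor (SRF), a transcription factor that works with the cofactors myocardin (MYOCD) and the myocardin-related factors MRTFA and MRTFB. The group with mural cells is labelled SMMCs here, for smooth muscle and mesenchymal cells.

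The muscle library held 4395 cells with a median of 4184 UMIs, and the 4 culture libraries held 2772 to 10405 cells with medians of 18340 to 27239.5 UMIs per cell. SMMCs numbered 548 cells in muscle, from all 10 donors, and 365 at P0, where 7 donors had the minimum of 10 cells that a summed sample needed. No cell carried the SMMCs label at P2, P5 or P8, when all cells were labelled FAPs or SCs. The label fitted its markers in muscle, where RGS5, NOTCH3, KCNJ8, MCAM and PDGFRB, genes that mark pericytes and vascular smooth muscle, each had their highest mean level in SMMCs among 8 cell types. At P0 this held for 4 of the 5, the exception being MCAM at 19.0 CPM in SMMCs and 44.8 CPM in vascular endothelial cells (VECs). Libraries shared 4 to 29 cell barcodes per pair and 129 in all.

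In muscle, each of the 10 genes had its highest mean level in SMMCs among the 7 cell types with summed samples of at least 3 donors, and in no case did the range of SMMC donors overlap that of the next of these types. Neutrophils had enough cells in donor 4 alone and were not ranked. In that 1 sample ACTA2 stood at 523 CPM, MYL9 at 182 CPM, TAGLN at 68.3 CPM, and CNN1 and MYLK at 45.5 CPM each, which is below every SMMC donor but, for these genes, above the mean of the next ranked type. RGS5, the pericyte marker, stood at 205 CPM in the same sample, and the part of mural RNA in its values was not tested. Cell types were named from clusters of the same cells, so these differences between types are a description without a test. The actins form the thin filament on which the motor pulls. ACTA2 (ENSBTAG00000014614), the smooth muscle actin of arteries, ran from 4335 to 17262 CPM over the 10 SMMC donors with a median of 7560, and its mean was 40.7-fold above that of SCs, the next type. ACTG2 (ENSBTAG00000015441), the smooth muscle actin best known from the gut, ran from 128 to 2331 CPM with a median of 691, and its mean was 845-fold above that of FAPs. The actin genes are nearly identical in coding sequence, so the authors' counting could have split or dropped reads shared among ACTA2, ACTG2 and the striated muscle actins.

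The motor itself followed the same order of cell types. MYH11 (ENSBTAG00000015988), the smooth muscle myosin heavy chain, ran from 222 to 2433 CPM in SMMCs with a median of 898, and was 120-fold above SCs in mean. MYL9 (ENSBTAG00000011473), a regulatory light chain, ran from 1016 to 3684 CPM with a median of 2372, which was 21.3-fold above VECs in mean. MYLK (ENSBTAG00000014567), the kinase that phosphorylates that light chain, ran from 543 to 1130 CPM with a median of 703 and was 23.4-fold above VECs. In all 3 genes each SMMC donor was above each donor of the ranked types.

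Among the proteins that bind the filament, the contrast between cell types varied more. CNN1 (ENSBTAG00000011207, calponin) ran from 195 to 2829 CPM in SMMCs with a median of 751, 338-fold above VECs in mean. TAGLN (ENSBTAG00000007196, transgelin) ran from 807 to 1415 CPM with a median of 1001, 135-fold above FAPs, and the donors spanned a narrower range than for CNN1. LMOD1 (ENSBTAG00000021576), the leiomodin of smooth muscle, ran from 172 to 438 CPM with a median of 251 and was 52.6-fold above SCs. The remaining members, CALD1 and SMTN, were shared more widely. Both are known to have forms made outside smooth muscle, which counts per gene do not separate, and their part here was not tested. CALD1 (ENSBTAG00000013953, caldesmon) ran from 2156 to 3481 CPM in SMMCs, with a median of 2888, and was only 6.25-fold above FAPs. SMTN (ENSBTAG00000003100, smoothelin) ran from 310 to 743 CPM, with a median of 463, and was 4.76-fold above VECs, where its mean was 95.7 ± 13.9 CPM (SD, n = 10).

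**Figure D1:**
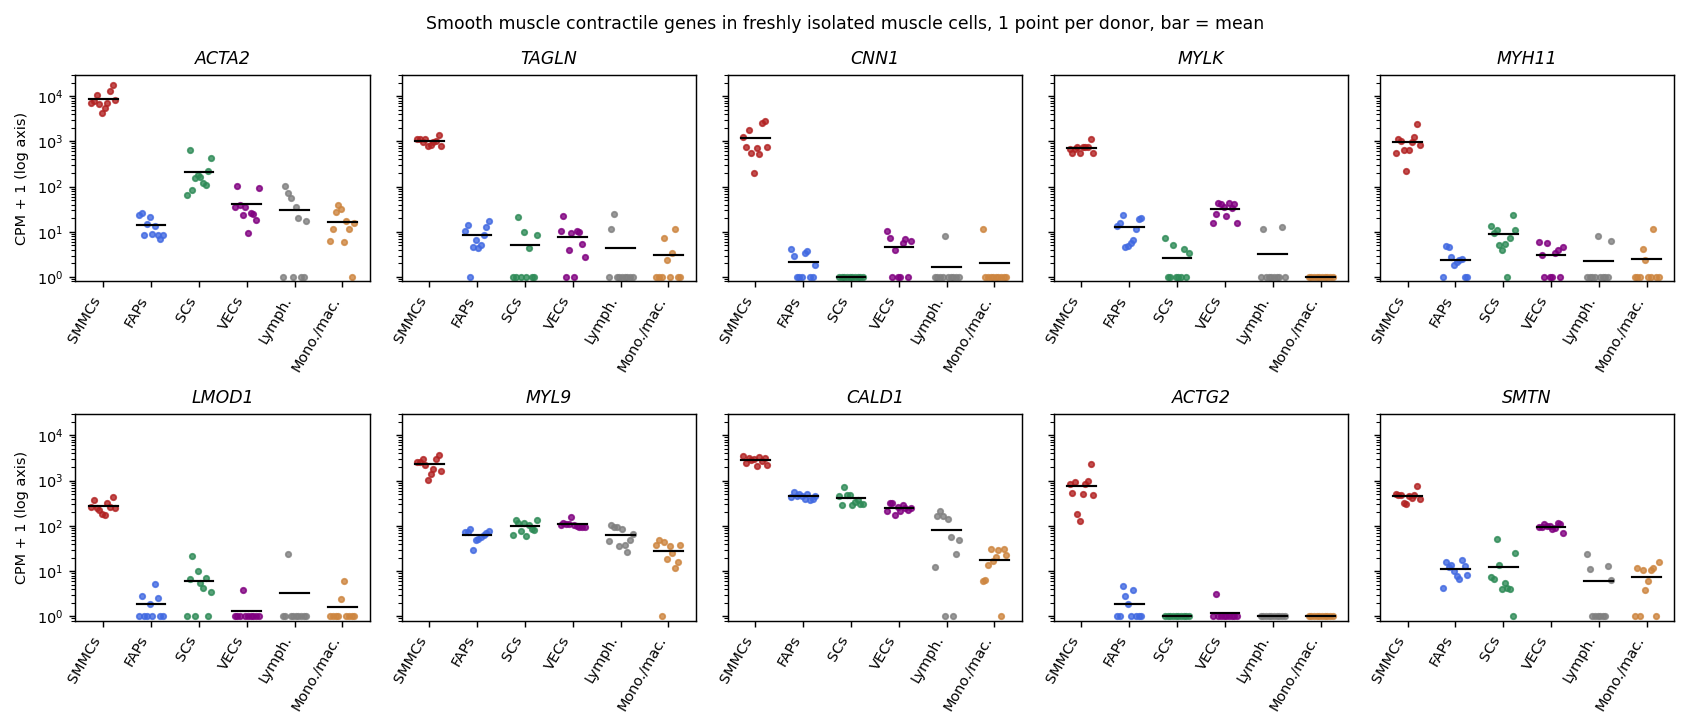
Level of each contractile gene in freshly isolated muscle, as CPM + 1 on a log axis, for SMMCs, FAPs, SCs, VECs, lymphocytes and monocytes/macrophages. Each point is 1 donor and each bar the mean, and for every gene the SMMC points sit above all points of the other types shown, with CALD1 and SMTN showing the smallest gap.

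SCs of muscle held ACTA2 at 62.6 to 638 CPM, with a median of 156, against 6.05 to 24.5 CPM and a median of 10.4 in FAPs. Every SC donor was above every FAP donor. To compare cells of unequal depth, each cell was thinned to 2000 UMIs and shallower cells were left out, which kept 601 of 647 SCs and 186 of 188 lymphocytes. ACTA2 was then seen in 21.5% of muscle SCs (30.8% unthinned), in 2.51% of FAPs (5.28% unthinned) and in 4.30% of lymphocytes (6.38% unthinned), a type that should lack it. Median depths were 3861 UMIs in SCs, 6213 in FAPs and 4407 in lymphocytes. The FAP share was no higher than this background and the SC share was above it. RGS5 had a mean of 23.6 CPM in muscle SCs, 2.97 CPM in FAPs and 40.2 CPM in lymphocytes. The medians over donors were 9.53, 0 and 2.66 CPM. The part of mural RNA in the ACTA2 level of muscle SCs was not tested. CNN1 and ACTG2 had no UMI in muscle SCs of any donor, which allows up to 1.07 CPM over the 2804015 UMIs of that group.

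Single SMMCs of muscle did not all show the whole set. After thinning, which kept 408 of 548 cells with a median depth of 2792 UMIs before thinning, ACTA2 and CALD1 were each seen in 95.8% of SMMCs, MYL9 in 90.0% and TAGLN in 74.0%. MYLK was seen in 54.2%, SMTN in 47.8% and CNN1 in 32.4%. LMOD1 was seen in 28.7%, MYH11 in 28.2% and ACTG2 in 23.8%. A share below 100% includes cells in which a transcript was missed at this depth. The tenth of cells with the most UMIs of a gene held 73.0% of all MYH11 UMIs, 74.7% of ACTG2 UMIs and 65.7% of CNN1 UMIs, compared with 34.3% for ACTA2 and 29.9% for TAGLN. The median cell showed 5 of the 10 genes, 67.2% of SMMCs showed at least 5, and no FAP, SC or VEC of muscle did.

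CNN1, MYH11, LMOD1 and ACTG2 were often seen in the same SMMCs. Of the 132 cells with a CNN1 UMI, 62.1% had a MYH11 UMI, against 12.0% of the cells without one. ACTG2 was seen in 58.3% of cells with CNN1 and in 7.25% of the others. LMOD1 was seen in 56.1% and 15.6%. Cells with a CNN1 UMI also held more UMIs before thinning, 5693 on average against 3571, and the part of depth in these shares was not tested beyond the thinning. The shares pool the cells of all donors, whose levels differed, and were not computed within each donor. The SMMCs label was not divided further here.

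The first comparison asked how levels of the contractile genes in each cell type differed between muscle and P0, after 72 h of culture. In SMMCs 9 of the 10 genes fell. The label was not divided, so a fall within cells cannot be told apart from a change in which SMMCs were captured. Among the 3454 genes tested in SMMCs, 21.3% fell and 15.1% rose. A gene was counted as changed when its adjusted p was under 0.05 and its log2 fold change beyond 1 in size, by edgeR's quasi-likelihood test over donors with Benjamini-Hochberg adjustment over all genes tested, which is the test meant throughout. The median log2 fold change was -1.80 over the 10 genes and 0.01 over all genes.

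MYH11 in SMMCs ran from 222 to 2433 CPM in muscle and from 17.7 to 83.1 CPM at P0, where the median was 31.6. No P0 donor came near the lowest muscle donor, and the log2 fold change was -4.94 ± 0.48 (SE; adjusted p = 1.18e-07; lower in 7 of 7 donors sampled at both times). MYL9 ended at 164 to 485 CPM with a median of 397, below every muscle donor, at -2.70 ± 0.30. TAGLN ended at 53.2 to 334 CPM with a median of 167, also below every muscle donor, at -2.54 ± 0.27. By these estimates the light chain and transgelin fell less than the heavy chain, and the actins and the kinase less again. The differences between genes were not tested.

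ACTA2 ended at 937 to 5418 CPM with a median of 3049, which overlapped the muscle range, and its log2 fold change was -1.55 ± 0.38. CNN1 (-2.04 ± 0.48), LMOD1 (-1.82 ± 0.21) and SMTN (-1.79 ± 0.15) fell in all 7 donors. MYLK ended at 213 to 429 CPM, a log2 fold change of -1.09 ± 0.16, and ACTG2 at 213 to 582 CPM, -1.14 ± 0.47 (adjusted p = 0.0408; higher in 1 of 7 donors). CALD1 went from a median of 2888 to 2185 CPM, a log2 fold change of -0.38 ± 0.10 that did not pass the size threshold. At P0 the SMMCs thus still held 77.1% of their muscle level of CALD1, 46.9% of MYLK and 44.9% of ACTG2, but 3.66% of MYH11.

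The calls of ACTG2 and MYLK were the least firm. Without donor 9, whose muscle SMMCs held the most of both, they did not pass (ACTG2 log2 fold change -0.74, adjusted p = 0.128; MYLK -0.93), leaving 7 genes, and with the donor as a block ACTG2 did not pass (-0.94).

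Mural identity genes fell with them. Of 14 genes of this list that could be tested (receptors, channels and mitochondrial genes of pericytes), 13 fell and none rose, and their summed level went from 6111 to 9127 CPM in muscle to 581 to 1179 CPM at P0. RGS5, a regulator of G-protein signalling that marks pericytes, went from 1522 ± 372 CPM (n = 10) to 5.16 ± 4.67 CPM (n = 7), a log2 fold change of -8.23. COX4I2 (-5.00), NDUFA4L2 (-4.49) and the potassium channel gene KCNJ8 (-4.28) also fell. Of 12 further smooth muscle genes tested, 9 fell, led by the calcium pump inhibitor PLN (-4.48), PDLIM3 (-4.19) and the intermediate filament gene SYNM (-3.54). Of 21 actomyosin genes used by every cell, 3 rose and 7 fell.

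Members still marked SMMCs at P0. Each of the 10 genes again had its highest mean level in this type among 6 types. The ranges of donors did not overlap the next type for 9 of them, which is a description as before. The exception was TAGLN, at 53.2 to 334 CPM in SMMCs and 4.40 to 94.6 CPM in VECs. The mean of ACTA2 was 46.1-fold above SCs, that of CNN1 84.0-fold above VECs, and that of ACTG2 58.9-fold above FAPs, while SMTN was only 1.66-fold above VECs. Fewer genes were seen per cell, with a median of 3 of the 10 and at least 5 in 29.2% of the 360 thinned SMMCs.

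FAPs were compared over the same 72 h. Of the 6 members that could be tested in FAPs, 2 rose and none fell, against 20.9% of all 9208 genes that rose and 22.5% that fell. With 6 genes this count cannot be set apart from these shares, and it is not read as a result about the set. ACTA2 went from 6.05 to 24.5 CPM, with a median of 10.4, to 20.1 to 55.9 CPM with a median of 36.8, and the ranges overlapped slightly. The log2 fold change was 1.60 ± 0.26 (adjusted p = 6.13e-06; higher in 8 of 9 donors). SMTN went from 3.18 to 16.6 CPM to 24.0 to 45.4 CPM, with no overlap, at 1.99 ± 0.19 (adjusted p = 1.00e-09; 9 of 9 donors). CALD1 was higher in 9 of 9 donors too but stayed below the size threshold, at 0.91 ± 0.09. MYLK (-0.82), TAGLN (-0.53) and MYL9 (-0.52) did not pass it either. In monocytes/macrophages the means of ACTA2, SMTN and CALD1 also went up, without a test. They went from 15.9 to 29.4 CPM, from 6.32 to 20.5 CPM and from 16.9 to 375 CPM. At P0 the ranges of that type for ACTA2 (9.47 to 65.5 CPM) and SMTN (0 to 47.3 CPM) spanned those of FAPs. The part of free RNA in the FAP values was not tested. When every sample was thinned to the smallest total of 270458 UMIs, 2 members could be tested and neither passed, and without the filter on low counts 5 members passed.

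ACTA2 remained sparse in single FAPs at P0. It was seen in 7.41% of thinned FAPs at P0 (36.2% unthinned, median depth 24188 UMIs), and in 4.41% of monocytes/macrophages (15.6% unthinned, median depth 7568 UMIs), a type that should lack it. CNN1, MYH11, LMOD1 and ACTG2 were too low in muscle FAPs to be tested and had means of 0.376 to 5.93 CPM at P0. General actomyosin genes moved further in FAPs, where 12 of 21 rose and none fell, led by CNN2 (4.64), TPM4 (2.37), FLNA (2.24) and TPM1 (2.17). The myofibroblast and TGF-beta response genes mostly fell, with 9 of 14 lower and 3 higher.

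In SCs ACTA2 fell and CALD1 rose, out of 3 members that could be tested, against 18.5% of all 5221 genes that fell and 15.8% that rose. ACTA2 went from 62.6 to 638 CPM, with a median of 156, to 18.1 to 96.7 CPM with a median of 74.3, and the ranges overlapped. It was lower in 9 of 9 donors, at a log2 fold change of -1.89 ± 0.42 (adjusted p = 5.72e-04). When every sample was thinned to the smallest total of 97693 UMIs, its adjusted p was 0.103 and only CALD1 passed, and without the filter on low counts 6 members passed. CALD1 went from 282 to 727 CPM to 648 to 1059 CPM, at 1.11 ± 0.14 (adjusted p = 2.88e-07; 9 of 9 donors). Its mean went from 403 to 877 CPM in SCs and from 16.9 to 375 CPM in monocytes/macrophages. The part of free RNA in the SC values was not tested. Mean RGS5 in SCs went from 23.6 CPM in muscle to 0.0905 CPM at P0. With FAPs and SCs that held an RGS5 UMI left out, all 40 recomputed log2 fold changes of members kept their sign and call. Cells without an RGS5 UMI can still hold mural RNA. MYL9, at -0.78 ± 0.15, did not reach the size threshold, and it turned to 0.39 with the samples thinned to the smallest UMI total. The sign of the ACTA2 change was thus opposite in FAPs and SCs, though the difference between these changes was not itself tested. RNA of striated muscle fibres was present in these muscle cells and nearly gone at P0. ACTA1, the skeletal muscle actin, stood at 247 CPM in muscle SCs, 479 CPM in FAPs and 189 CPM in lymphocytes, and at a mean of no more than 0.103 CPM in the types shown at P0, so in muscle it was higher in FAPs than in SCs, unlike ACTA2. Its part in the ACTA2 values was not tested.

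In VECs TAGLN and CALD1 rose and ACTA2 fell, out of 6 members tested, against 15.6% of all 5896 genes that rose and 19.6% that fell. TAGLN went from 0 to 21.5 CPM to 4.40 to 94.6 CPM, at a log2 fold change of 2.73 ± 0.61 (adjusted p = 5.54e-04; 9 of 9 donors), with overlapping ranges. Its mean in muscle VECs was only 6.71 CPM, and it entered the test mainly through its P0 level. Nothing is therefore read from the size of the TAGLN change. CALD1 went from 173 to 327 CPM to 426 to 726 CPM, with no overlap, at 1.14 ± 0.13. In means, CALD1 went from 250 to 559 CPM in VECs and from 16.9 to 375 CPM in monocytes/macrophages. The part of free RNA in the VEC values was not tested. ACTA2 went from 8.35 to 101 CPM to 3.07 to 56.3 CPM, at -1.26 ± 0.46 (adjusted p = 0.0186), a call that was lost without the filter on low counts (adjusted p = 0.0745). Thinned to the smallest total of 206284 UMIs, 3 members could be tested in VECs and none passed.

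**Figure D2:**
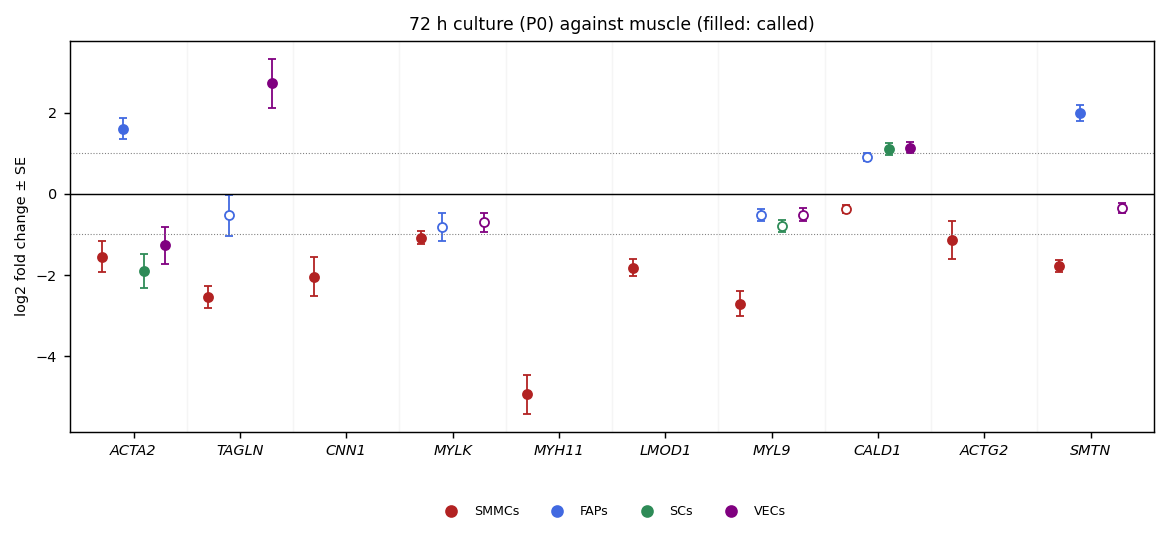
Log2 fold change from muscle to P0 of each contractile gene in SMMCs, FAPs, SCs and VECs, with its standard error. Filled points passed the test and open points did not, dotted lines mark the size threshold, and a missing point is a gene too low to be tested. The SMMC points all lie below 0, with MYH11 lowest at -4.94, whereas FAPs, SCs and VECs lie on both sides.

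Whether the 72 h change of a gene differed between types was tested as an interaction, which uses the same samples as the plain comparisons above. Of the 6 members that could be tested in both FAPs and SMMCs, the change was more positive in FAPs for 5, against 5.61% of 7431 genes. The differences in log2 fold change were 3.52 for SMTN, 2.93 for ACTA2, 1.93 for MYL9, 1.76 for TAGLN and 1.04 for CALD1, and MYLK (0.02) did not pass. ACTG2, CNN1 and MYH11 passed too, but they were too low in FAPs to be tested there and entered only through SMMCs, so nothing is read from them. Of the 3 members that could be tested in both SCs and SMMCs, MYL9 (2.00) and CALD1 (1.57) had a more positive change in SCs, against 8.35% of 6190 genes, and nothing is read from SMTN and MYH11, which passed but were too low in SCs. When every sample was thinned to the smallest total of 78426 UMIs, 1 member of 10 passed in the FAP interaction, and 5 of 10 in the SC interaction.

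Most of the contractile genes rose in cultured FAPs by passage 2. In FAPs, 8 of the 9 members that could be tested rose from P0 to P2 and none fell, against 13.6% of all 11439 genes that rose and 9.79% that fell. The comparison used donors 1, 2, 4, 7, 8 and 9, whose cells were grown unsorted or as sorted FAPs, and every one of the 8 genes was higher in 6 of 6 donors. The median log2 fold change was 4.00 over the members and 0.04 over all genes. The members were chosen with earlier results of these data known, so their count beside the share of all genes is a description.

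Both actins rose. ACTA2 went from 29.3 to 55.9 CPM, with a median of 35.7, to 452 to 1023 CPM with a median of 556, a log2 fold change of 4.18 ± 0.24 (adjusted p = 2.33e-08). ACTG2 went from 4.55 to 11.1 CPM, with a median of 5.75, to 85.4 to 213 CPM with a median of 129, at 4.56 ± 0.31 (adjusted p = 6.38e-08). In both genes all P2 donors were far above all P0 donors.

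The light chain and its kinase rose with them. MYL9 went from 29.3 to 56.1 CPM to 297 to 431 CPM, at 3.35 ± 0.16 (adjusted p = 4.96e-09). MYLK went from 3.62 to 11.3 CPM to 38.2 to 146 CPM, at 4.00 ± 0.37 (adjusted p = 8.46e-07). The heavy chain did not accompany them, as MYH11 was too low to be tested, with a mean of 0.480 CPM at P0 and 0.676 CPM at P2, and was higher in 3 of 6 donors.

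Of the filament-binding proteins, LMOD1 had the largest estimate, from 0.241 to 1.07 CPM to 16.0 to 21.4 CPM, at 4.77 ± 0.19 (adjusted p = 1.40e-09). Its mean at P0 was 0.822 CPM in FAPs of all donors and 1.81 CPM in monocytes/macrophages, a type that should lack it. The part of free RNA in that P0 level was not tested, so nothing is read from its rank. CNN1 went from 1.29 to 6.01 CPM to 17.6 to 72.6 CPM, at 4.17 ± 0.41, and TAGLN from 1.45 to 11.6 CPM to 64.4 to 90.4 CPM, at 3.98 ± 0.35. CALD1, already high at P0, went from 699 to 851 CPM to 1911 to 2289 CPM, at 1.64 ± 0.08. In each of these genes the 2 timepoints did not overlap. SMTN was the exception, at 24.0 to 42.0 CPM and then 14.1 to 28.8 CPM, a log2 fold change of -0.49 ± 0.18 that did not reach the size threshold. Set against muscle FAPs of the same donors, 9 of 9 tested members were higher at P2, against 18.5% of 10946 genes. CNN1, LMOD1 and ACTG2 are among the 9 but were too low in muscle FAPs to be tested from muscle to P0. They entered through their P2 level, so nothing is read from the size of their change. For the others the log2 fold changes ran from 1.25 for SMTN to 5.78 for ACTA2. The comparison with muscle FAPs was added after the levels had been seen and shares its P2 samples with the one from P0. At the smallest total of 314002 UMIs 3 members could be tested and all 3 rose.

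Genes around the set moved unevenly in P2 FAPs. Most of the myofibroblast and TGF-beta response list rose, with 11 of 14 tested genes higher and 1 lower, including COL1A1, a chain of type I collagen (4.11), the matrix signalling gene CCN2 (3.80) and tenascin TNC (3.30), while POSTN, which encodes the matrix protein periostin, fell by 5.43 on the log2 scale. Of 13 further smooth muscle genes 8 rose, among them the small heat shock gene HSPB6 (3.95), the integrin gene ITGA8 (3.87), the potassium channel subunit KCNMB1 (2.96) and the phosphatase inhibitor PPP1R14A (2.22). Of 21 general actomyosin genes 5 rose. Of 6 tested genes of striated muscle fibres 5 rose and 1 fell, led by the cardiac actin gene ACTC1 (5.51) and the light chain gene MYLPF (4.82). In the same P2 library ACTA1, of this list, stood at a mean of 2.61 CPM in FAPs and 96.0 CPM in SCs. The part of free RNA from SCs in the FAP values of these striated muscle genes was not tested. The mural identity genes did not follow, with 1 of 10 higher (PDGFRB, 1.32) and 2 lower (HIGD1B and ABCC9). Their summed level was 84.6 to 154 CPM in P2 FAPs, against 82.8 to 121 CPM at P0 and 6111 to 9127 CPM in muscle SMMCs, and RGS5 was at 0 in FAPs of every donor from P0 to P8.

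SRF and its cofactors were measured as transcripts. SRF stood at 19.8 CPM at P0 and 16.3 CPM at P2 in FAPs, a log2 fold change of -0.12 ± 0.09 (adjusted p = 0.244). MRTFA (0.58) and MRTFB (0.26) stayed below the size threshold, and MYOCD was too low to be tested, at 0.0151 and 0.111 CPM, against 29.5 ± 17.6 CPM in muscle SMMCs. Of the 9 tested genes of this list 2 rose, the LIM domain gene CSRP1 (1.56), whose product binds actin filaments, and KLF4 (1.63), a factor known to oppose smooth muscle differentiation.

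SCs gained a smaller part of the set at P2. Of 8 members tested, 5 rose and none fell, against 5.49% of all 9913 genes that rose and 3.24% that fell, over donors 1, 2, 5, 6, 9 and 10. As in FAPs, the earlier choice of members makes this count a description. ACTA2 went from 18.1 to 96.7 CPM, with a median of 68.2, to 245 to 869 CPM with a median of 424, with no overlap, at 3.11 ± 0.47 (adjusted p = 4.58e-04; 6 of 6 donors). MYL9 went from 46.8 to 72.8 CPM to 211 to 387 CPM, at 2.26 ± 0.17 (adjusted p = 3.00e-06; 6 of 6), and TAGLN from 0 to 5.40 CPM to 10.0 to 29.3 CPM, at 3.38 ± 0.57 (6 of 6). All P2 donors exceeded all P0 donors in these 3 genes. TAGLN had a median of only 0.747 CPM at P0 and entered the test through its P2 level. Nothing is therefore read from the size of its change. MYH11 and LMOD1 were too low in SCs to be tested. MYH11 stood at 0 to 1.43 CPM and then at 1.58 to 5.38 CPM, and LMOD1 at 0.478 to 1.09 CPM and then at 1.21 to 2.15 CPM, each without overlap and higher in 6 of 6 donors.

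CNN1 and ACTG2 rose from near absence to low levels in SCs. CNN1 went from 0 to 2.18 CPM, with a median of 0, to 2.87 to 10.1 CPM, at 2.87 ± 0.66 (6 of 6 donors). With that median CNN1 entered the test through its P2 level, so nothing is read from the size of its change. ACTG2 went from 2.04 to 6.52 CPM to 3.34 to 20.1 CPM with overlap, at 1.76 ± 0.40 (adjusted p = 0.00508; 4 of 6). The kinase MYLK, at 0.94 to 4.35 CPM and then 1.13 to 9.35 CPM, did not pass (0.72, adjusted p = 0.385), nor did CALD1 (0.51) or SMTN (-0.28). Against muscle SCs, 4 of 5 tested members were higher at P2, against 15.7% of 8494 genes, namely TAGLN (2.80), CALD1 (2.06), MYL9 (1.63) and SMTN (1.32). TAGLN and SMTN were too low in muscle SCs to be tested from muscle to P0. Both entered through their P2 level, so nothing is read from the size of their change. ACTA2 missed both thresholds (0.99, adjusted p = 0.0989), it passed with DESeq2 in place of edgeR (1.05), and its sign turned with thinning (-0.74). Thinned to the smallest total of 136007 UMIs, none of 3 tested members passed in this comparison, which was likewise added after the levels had been seen. CNN1 and ACTG2, without a UMI in muscle SCs, were at least 5.05-fold and 9.55-fold higher in the 6 donors at P2, from the limit that 3 UMIs over the muscle group set.

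Striated muscle genes rose in SCs over the same interval, and 7 of 7 tested genes of that list were higher at P2, led by MYLPF (10.49), ACTA1 (10.15) and TNNI1 (9.91). ACTA1 stood at 96.0 CPM in P2 SCs and 2.61 CPM in P2 FAPs. The share of reads that striated actins could lend to ACTA2 or ACTG2 was not tested. Of 13 tested myofibroblast and TGF-beta response genes, 8 rose in SCs, none fell and 5 did not pass, and of 9 tested further smooth muscle genes 5 rose, both beside the 5.49% of all genes that rose. The further smooth muscle list includes DES, the gene of desmin, which the paper describes as raised in SCs committed to differentiation. The count of that list in SCs is therefore not read as a gain of smooth muscle genes alone. With all samples thinned to the smallest total of 920291 UMIs, 2 of 4 tested members rose in SCs.

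Of the 8 members that could be tested in both types, the gain from P0 to P2 was larger in FAPs than in SCs for 4, against 8% of 11787 genes, by the interaction of cell type and timepoint, a test added after the levels had been seen. The differences in log2 fold change were 3.51 ± 0.77 for MYLK, 2.75 ± 0.53 for ACTG2, 1.17 ± 0.16 for CALD1 and 1.12 ± 0.23 for MYL9. LMOD1 passed as well but was too low in SCs to be tested there, so nothing is read from it. ACTA2 (1.08, adjusted p = 0.113), CNN1 (1.38, adjusted p = 0.256) and TAGLN (0.68, adjusted p = 0.482) did not pass, which does not show that their gains were alike. At equal thinned depth 1 of 8 members passed.

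**Figure D3:**
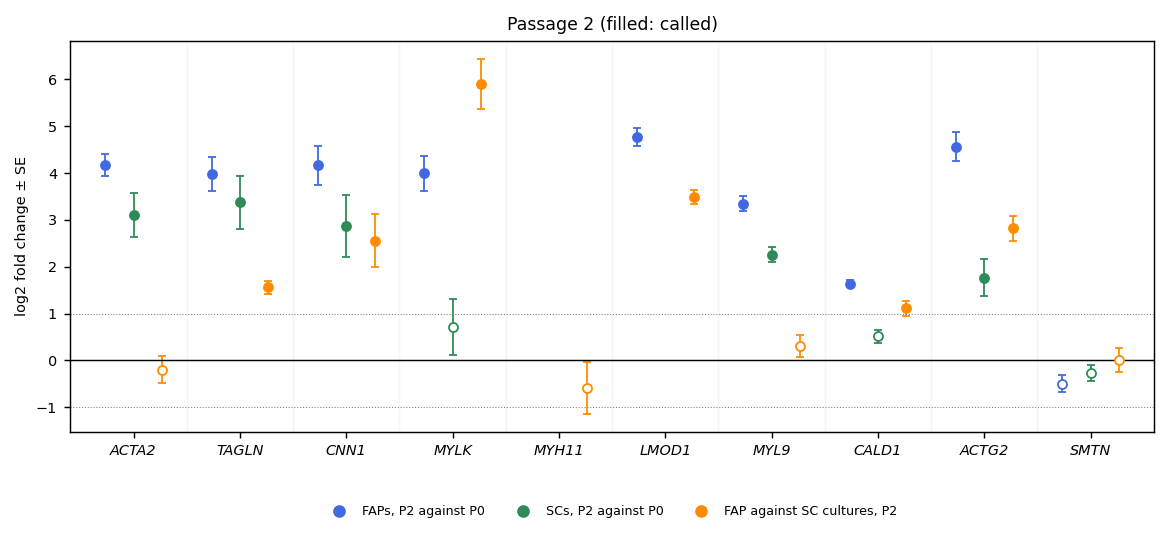
Log2 fold change of each contractile gene with its standard error, for FAPs from P0 to P2, SCs from P0 to P2, and whole FAP cultures against whole SC cultures at P2. Filled points passed the test, open points did not, dotted lines mark the size threshold, and a missing point is a gene too low to be tested. FAP points lie at 1.64 or above for the 8 genes that rose, SMTN lies just below 0 in both cell types, and MYLK shows the largest difference between cultures at 5.91.

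The sort allowed a comparison that does not rest on cluster labels. At P2 all cells of the 3 FAP cultures were summed per donor and set against all cells of the 3 SC cultures. By label, 94.0% of cells in the FAP cultures were FAPs and 98.9% of cells in the SC cultures were SCs, and in such sums a change in the share of a type cannot be told apart from a change in level per cell. Of 10 members 6 were higher in FAP cultures and none lower, against 11.2% of 12199 genes that were higher and 6.99% that were lower.

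MYLK separated the cultures most. It stood at 52.6, 88.5 and 144 CPM in the FAP cultures of donors 4, 7 and 8, and at 1.54, 2.74 and 1.15 CPM in the SC cultures of donors 5, 6 and 10, a log2 difference of 5.91 ± 0.54 (adjusted p = 0.00100). LMOD1 stood at 19.6, 15.5 and 19.1 CPM against 1.82, 1.94 and 1.68 CPM, 3.48 ± 0.15 (adjusted p = 1.81e-04). ACTG2 stood at 78.4, 109 and 92.5 CPM against 20.0, 12.5 and 12.1 CPM, 2.82 ± 0.27 (adjusted p = 0.00113). In these 3 genes every FAP culture was above every SC culture.

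CNN1 stood at 56.0, 25.8 and 17.3 CPM against 10.1, 4.98 and 3.52 CPM, 2.56 ± 0.56. TAGLN stood at 73.4, 63.9 and 66.3 CPM against 29.0, 27.0 and 21.6 CPM, 1.56 ± 0.14, and CALD1 at 1870, 2288 and 2182 CPM against 1012, 1323 and 973 CPM, 1.11 ± 0.17. ACTA2 did not separate the cultures, at 541, 613 and 455 CPM against 859, 799 and 417 CPM, a log2 difference of -0.20 (adjusted p = 0.624). MYL9 (0.30), SMTN (0.01, whose sign turned under some alternatives) and MYH11 (-0.59) did not pass. Of the mural identity genes 5 of 8 were higher in FAP cultures and 1 was lower. Of 17 further smooth muscle genes tested, 4 were higher in FAP cultures and 6 were lower. Because that list includes DES, this count is not read as a difference in smooth muscle genes alone.

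After P2 few changes passed the test. None of the 9 members tested passed between P2 and P8 in the 3 FAP donors by edgeR's quasi-likelihood test or by DESeq2 (2 had an unadjusted p under 0.05 with edgeR), in a comparison where 0.0361% of 11082 genes passed in either direction. The smallest adjusted p was 0.405, for ACTG2. It stood at 85.4, 112 and 93.8 CPM at P2 in donors 4, 7 and 8 and at 251, 189 and 122 CPM at P8, a log2 fold change of 0.94 ± 0.26, higher in 3 of 3 donors. ACTA2 stood at 535, 577 and 452 CPM and then at 1399, 941 and 498 CPM (0.85, 3 of 3 donors). In both genes the P8 value exceeded the P2 value of the same donor in each of the 3 animals, and the test does not show that the levels stayed alike. Of the 9 tested members 7 were higher at P8 in 3 of 3 donors, TAGLN in 2 and SMTN in 0. The course was not a steady one, since at P5 both genes stood below P2 in each of these donors. ACTG2 was then at 56.5, 36.2 and 23.1 CPM and ACTA2 at 449, 205 and 245 CPM in donors 4, 7 and 8. In SCs, LMOD1 alone of 10 members rose from P2 to P5, against 0.111% of 10781 genes that rose, from 1.21 to 2.15 CPM to 2.59 to 7.00 CPM (1.62 ± 0.25, adjusted p = 0.0144; 6 of 6 donors). This call was lost without donor 5, 6, 9 or 10, and with the donor as a block 3 members rose, adding CNN1 (1.78, adjusted p = 0.0251) and ACTG2 (1.15, adjusted p = 0.0325).

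FAPs that grew in the SC cultures gave a further view of MYLK and LMOD1. At P8 the cells labelled FAPs made up 93.2% of the SC cultures, and MYLK in them stood at 32.2, 20.1 and 16.1 CPM in donors 5, 6 and 10, below the 60.2, 123 and 210 CPM of FAPs in the FAP cultures. LMOD1 stood at 4.54, 6.32 and 10.5 CPM against 29.7, 21.2 and 21.6 CPM. ACTG2 in the same cells did not separate them, at 253, 276 and 201 CPM against 251, 189 and 122 CPM. These differences were not tested, and coating, donor and sort cannot be told apart in them.

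**Figure D4:**
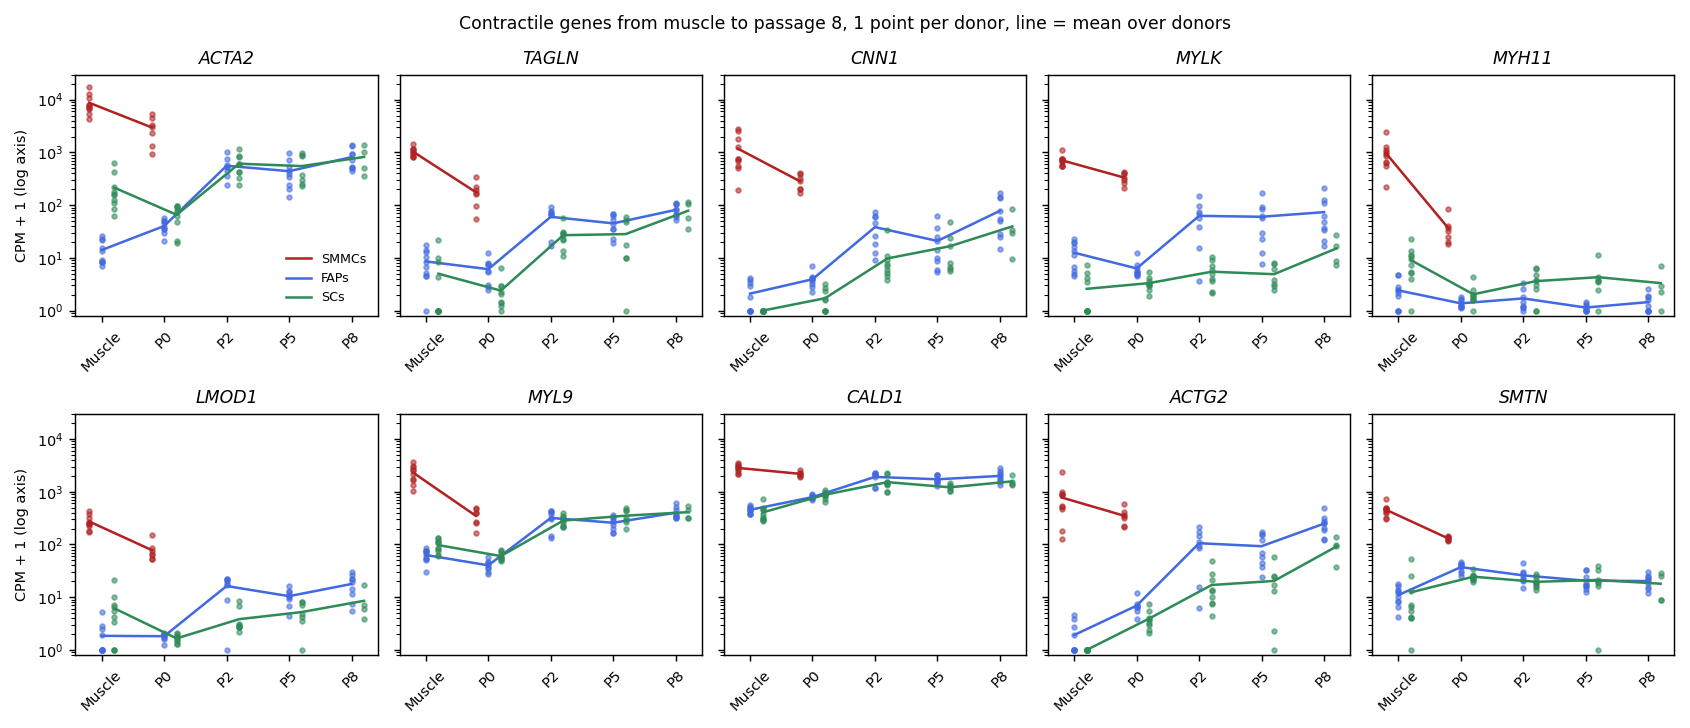
Level of each contractile gene in SMMCs, FAPs and SCs from muscle to P8, as CPM + 1 on a log axis, with 1 point per donor and a line through the means. SMMC lines end at P0, where MYH11 has dropped from a median of 898 to 31.6 CPM, and the FAP and SC lines of ACTA2, TAGLN, CNN1 and MYL9 climb between P0 and P2 and end higher at P8 than at P0, while MYH11 stays near the bottom in both.

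Cultured FAPs reached a different fraction of the mural level for each gene. With the mean of muscle SMMCs as reference, P2 FAPs over 8 donors held 67.5% of the CALD1 level, 13.9% of MYL9, 13.5% of ACTG2 and 8.71% of MYLK. For ACTA2 the share was 6.39%, for TAGLN 5.78%, for LMOD1 5.63%, for SMTN 5.48% and for CNN1 3.14%. MYH11 reached 0.073%. At P8, over 9 donors, the mean share was above that at P2 in 8 of the 10 genes, with ACTG2 at 31.8% and ACTA2 at 9.32%, and below it for SMTN, at 4.23%, and MYH11, at 0.046%. Against the lower levels of P0 SMMCs, P2 FAPs held 91.2% of MYL9, 87.5% of CALD1, 33.8% of TAGLN, 18.7% of ACTA2 and 1.99% of MYH11. P2 SCs held 12.4% of the muscle SMMC level of MYL9 and 6.99% of ACTA2, but 0.63% of MYLK. These fractions compare levels within a gene across libraries of unequal depth and are descriptions. The donor sets differ too. The 8 donors at P2 were the 6 tested from P0 to P2 plus donors 5 and 10, whose FAPs came from SC cultures. Those cultures held only 38 FAPs at P2, yet each donor counted equally. Over the 6 donors mean ACTG2 was 136 CPM, against 105 CPM over 8, and MYLK 79.5 against 61.7 CPM. All other members except SMTN and MYH11 were also higher over the 6. At P8 donor 6 was added, and the P2 SCs included donors 4, 7 and 8 from FAP cultures.

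The share of single FAPs at P2 in which a gene was seen varied from gene to gene. Cells in which a transcript was missed at 2000 UMIs count as not showing it. These shares therefore do not by themselves show that single FAPs differed, and such a difference was not tested. After thinning, ACTA2 was seen in 43.9% of P2 FAPs (81.8% unthinned, median depth 29540 UMIs), MYL9 in 47.7% (97.9% unthinned), ACTG2 in 14.8% (42.0% unthinned), MYLK in 14.1% (66.7% unthinned), TAGLN in 12.3% (70.7% unthinned) and CNN1 in 6.46% (35.0% unthinned). The P2 library held only FAPs and SCs, so it had no type that should lack these genes. The share that free RNA gives at P2 was not measured, and the shares of the 2 types in this library are given beside each other. In monocytes/macrophages at P0, a type that should lack them, the shares ran from 0 to 8.82% at a median depth of 7568 UMIs, in a library where most of these genes were lower in FAPs. P2 SCs showed ACTA2 in 49.4% of cells and MYL9 in 40.8%, while TAGLN was seen in 3.82%, ACTG2 in 2.19% and MYLK in 0.427%. The median FAP showed 2 of the 10 genes at P2, 2 at P5 and 3 at P8, and at least 5 were seen in 5.47%, 1.66% and 8.45% of FAPs, compared with 67.2% of muscle SMMCs. Of 2000 UMIs, members took 6.83 on average in P2 FAPs, 5.28 in P5 FAPs, 7.30 in P8 FAPs, 4.24 in P2 SCs and 31.8 in muscle SMMCs.

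With the P2 FAPs of all donors pooled, ACTA2 was seen in 80.7% of the 322 FAPs with a CNN1 UMI and in 41.4% of the others, and ACTG2 in 31.4% and 13.6%. The cells with CNN1 were deeper, at 36103 UMIs against 29758 before thinning. At P8 the shares with ACTA2 were 86.7% of FAPs with CNN1 and 53.3% of those without. These shares pool cells of donors whose levels of both genes differed, so cells that share 2 genes and donors that are high in both cannot be told apart in them.

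**Figure D5:**
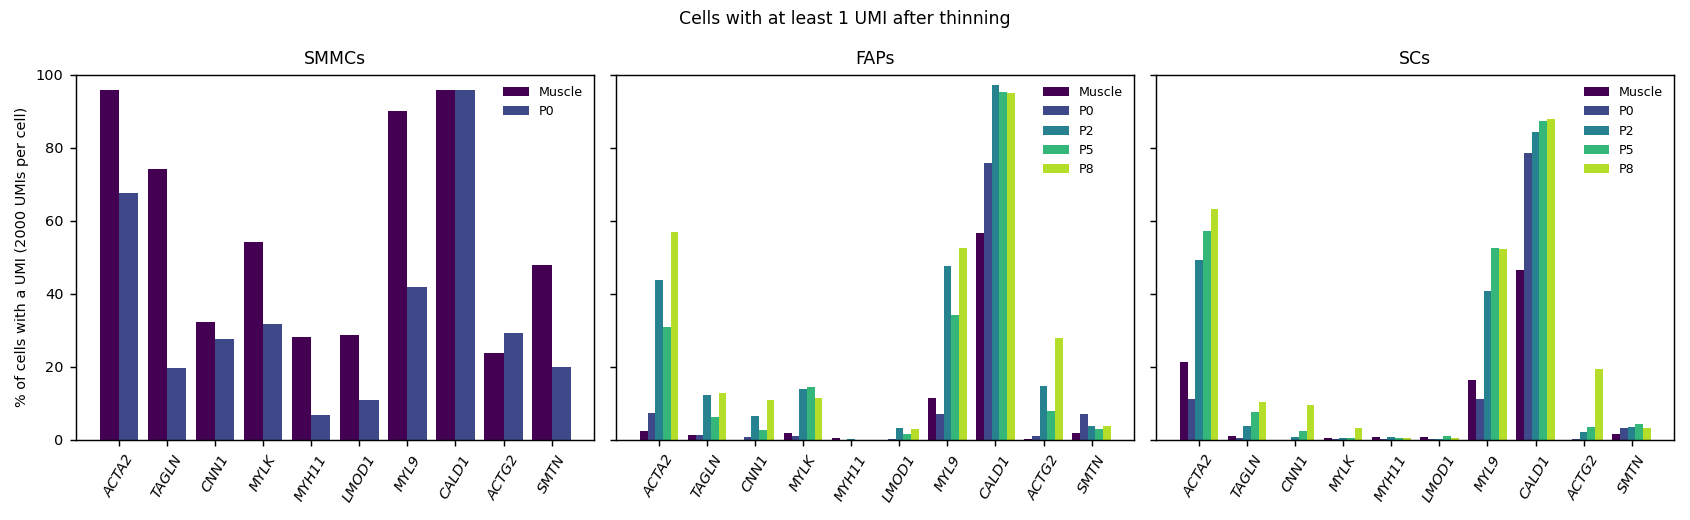
Percent of cells with at least 1 UMI of each contractile gene after thinning to 2000 UMIs per cell, in SMMCs, FAPs and SCs, with 1 bar per timepoint. ACTA2 falls from 95.8% to 67.5% of SMMCs between muscle and P0 and climbs from 7.41% to 43.9% of FAPs between P0 and P2, while MYH11 stays under 1% in FAPs and SCs throughout.

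The genes whose levels followed the set most closely were found by correlating each of 11080 genes with the mean profile of the 10 members over 19 groups of cell type and timepoint, as log2(CPM + 1). The closest were CSRP1 (r = 0.948), RCAN2 (0.943), VCL (0.937), IRAG1 (0.933), SUSD2 (0.890), RASL12 (0.885), SLMAP (0.879) and STMN2 (0.879). CSRP1 and VCL encode proteins of actin filaments and adhesion sites, and IRAG1 is known from relaxation of smooth muscle by cGMP. The 19 groups share 5 libraries and the same donors, so these values describe the order of genes only, and 6 of the 8 stayed among the first 8 with a pseudocount of 10.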

How the data were processed

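Counts were used as deposited. Per the labels and the study's methods, the authors sequenced 10x Chromium 3′ libraries of pooled donors, counted UMIs per gene and cell with Cell Ranger 6.0.1 against ARS-UCD1.2 (both named in the submitters' processing notes), merged the sequencing runs of each timepoint, assigned cells to donors by genotype, removed cells of poor quality and named cell types from clusters. Donor, timepoint and type were read from the deposited cell table, of which 12 columns were not used. That table holds only cells called as singlets of 1 donor, so doublets within a donor could remain, and no doublet caller was run here. No authors' fold changes were used.

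UMIs were summed per donor, timepoint and type over at least 10 cells. The donor was the replicate. Changes were tested with edgeR 4.0.16 (TMM factors, default filter on low counts, robust quasi-likelihood F test, two-sided, Benjamini-Hochberg adjustment over all genes tested) in R 4.3.3, and a change passed at an adjusted p under 0.05 and a log2 fold change beyond 1 in size. The SE is the log2 fold change divided by the square root of F. DESeq2 1.42.0, upper-quartile factors, no filter, at least 30 cells, thinning of samples, a donor block and leaving out donors were alternatives. Leaving out FAPs and SCs with an RGS5 UMI was a further one. The scripts were tested on simulated counts. Other tables used Python 3.11.15, numpy 2.4.6, pandas 2.3.3, scipy 1.17.1 and matplotlib 3.10.9. A donor number marks the same animal, so samples are paired across timepoints. The median correlation of same-numbered deviations was 0.0614 for FAPs and 0.0377 for SCs between muscle and P0, and -0.013 (from -0.43 to 0.46) for FAPs and 0.283 (from -0.044 to 0.60) for SCs between P0 and P2. Limits at a count of 0 cover counting error only. The 10 genes, the gene lists and the rule for named genes (all members, the 8 most similar genes, and at most 4 genes per list and comparison with the largest changes that passed, regulators free) were chosen with earlier results of these data known. No sequence was used here.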

Additional observations from a re-analysis of the deposited data

Results flagged for a closer look

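Donors that lay apart were sought in 90 sets of 6 to 10 donors. Each set was 1 gene in 1 cell type at 1 timepoint with at least 30 UMIs. In 17 sets a donor's gap to the next was too large a part of the range by Dixon's criterion, each time on the high side. The criterion marks about 1 in 20 sets if they are independent and normally distributed. These sets share donors, and the shape of their CPM values was not tested, so 17 of 90 is not set against that rate. Donor 9 accounted for 6 of them and donor 2 for 3. In muscle SMMCs, donor 9 stood highest for MYLK at 1130 CPM, MYH11 at 2433 CPM, ACTG2 at 2331 CPM and SMTN at 743 CPM, and its P0 SMMCs stood highest for MYH11 at 83.1 CPM. LMOD1 in P0 SMMCs stood apart in donor 8 at 151 CPM.

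Single donors also stood apart in other types. In muscle these were CALD1 in SCs of donor 3 at 727 CPM and MYL9 in VECs of donor 5 at 155 CPM. In P0 FAPs they were CNN1 in donor 4 at 6.01 CPM, MYLK in donor 9 at 11.3 CPM and ACTG2 in donor 2 at 11.1 CPM. In P0 SCs they were TAGLN in donor 6 at 5.40 CPM, MYH11 in donor 4 at 3.25 CPM and SMTN in donor 2 at 33.7 CPM. ACTA2 in P0 VECs stood apart in donor 7 at 56.3 CPM. Later, MYH11 stood apart in P2 FAPs of donor 8 at 2.28 CPM and in P5 SCs of donor 2 at 10.4 CPM.

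A difference between cell types in the same change passed for 17 interactions by edgeR's quasi-likelihood test. For 6 of them the gene was too low to be tested in one of the types by itself, so nothing is read from these, namely CNN1, MYH11 and ACTG2 in FAPs against SMMCs, MYH11 and SMTN in SCs against SMMCs, and LMOD1 in FAPs against SCs. From muscle to P0, the log2 fold change was higher in FAPs than in SMMCs by 2.93 for ACTA2, 1.76 for TAGLN, 3.49 for CNN1, 3.18 for MYH11, 1.93 for MYL9, 1.04 for CALD1, 3.83 for ACTG2 and 3.52 for SMTN. It was higher in SCs than in SMMCs by 2.37 for MYH11, 2.00 for MYL9, 1.57 for CALD1 and 3.09 for SMTN. From P0 to P2 it was higher in FAPs than in SCs by 3.51 for MYLK, 3.56 for LMOD1, 1.12 for MYL9, 1.17 for CALD1 and 2.75 for ACTG2.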

How the results depend on the processing

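Of 106 recomputed counts of members that passed, 89 stayed within 1.5 times the reported count. Without the filter on low counts, 5 members passed in FAPs and 6 in SCs from muscle to P0. With every sample thinned to the smallest UMI total, 0 passed in FAPs, 1 in SCs and 0 in VECs from muscle to P0, 2 in SCs from P0 to P2, 0 in SCs from P2 to P5, 3 in FAPs and 0 in SCs from muscle to P2, 1 in the interaction of FAPs and SMMCs and 1 in that of FAPs and SCs. From P2 to P5 in SCs, 2 passed with DESeq2, 3 with the donor block and 0 to 1 with a donor left out. The donor block moved no other count by more than 1.5 times, and of the members' calls it otherwise ended only that of ACTG2 in SMMCs.

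Some log2 fold changes turned sign. With thinning they were MYL9 in SCs at P0 (0.39), SMTN in SCs at P2 (0.40), TAGLN (-0.22) and SMTN (-0.38) in SCs at P5, ACTA2 in SCs at P2 against muscle (-0.74), and ACTA2 (0.73) and LMOD1 (3.82) in the interaction of SCs and SMMCs. With the donor block as pairing they were MYLK in SCs at P5 (0.031) and ACTA2 in that interaction (0.093). With a donor left out, SCs from P2 to P5 gave -0.014 to 0.21 for MYH11 and -0.14 to 0.030 for CALD1, and SMTN between cultures ran from -0.23 to 0.22. SMTN between cultures was -0.0044 with DESeq2 and -0.082 with upper-quartile factors. MYLK in the interaction of FAPs and SMMCs was -0.051 without the filter and -0.0028 with at least 30 cells. The cause was not tested. The median over members of the share of P0 FAPs with a UMI was 1.24% thinned, as a mean over donors. Unthinned, with cells pooled, it was 9.04%. Shares therefore need to be read with their depth.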
